A study of Mus musculus with 6 samples.

Results

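The enzymes that remove superoxide and peroxides were followed in mouse hearts expressing an active form of ATF6α or ATF6β. The 10 genes, taken by symbol from 21154 genes with a transcript cluster of their own on the array, were catalase (Cat), the peroxiredoxins Prdx1, Prdx2, Prdx3, Prdx4, Prdx5 and Prdx6, the superoxide dismutases Sod1 and Sod2, and the glutathione peroxidase Gpx1. Each had 1 cluster, shared with no other gene. RNA from ventricles of C57BL/6 mice, 8 weeks old and 4 weeks off doxycycline (DOX), was hybridised to 6 Clariom S arrays, 2 biological replicates per group. ATF6α-cn mice carried a FLAG-tagged N-terminal part of mouse ATF6α and ATF6β-cn mice a Myc-tagged N-terminal part of mouse ATF6β, each under a DOX-repressible α-myosin heavy chain (α-MHC) promoter together with the αMHC-tTA driver, and control mice carried αMHC-tTA alone. All groups therefore share the tTA transgene, the transgenes act in cardiomyocytes while the RNA comes from whole ventricle, and the levels of the 2 transgenes were not matched. Both transgenic lines had been raised on DOX food. The sex of each mouse is not stated for these arrays.

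In background terms, superoxide made by the respiratory chain and by oxidases is converted by superoxide dismutases into hydrogen peroxide, which catalase breaks down in peroxisomes and which peroxiredoxins and glutathione peroxidases reduce with electrons from thioredoxin and glutathione. The enzymes are divided between compartments: catalase is mainly peroxisomal, Prdx3 and Sod2 reside in the mitochondrial matrix, Prdx4 in the endoplasmic reticulum (ER), Prdx5 in several compartments, and Prdx1, Prdx2, Prdx6, Sod1 and Gpx1 largely in the cytosol. ATF6α and ATF6β are membrane proteins of the ER whose N-terminal parts are released when proteins misfold and activate chaperone genes from the nucleus. Their known target sequence, the ER stress response element (ERSE), joins CCAAT to CCACG over a spacer of 9 bases.

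Promoter windows, 250 bases before to 50 bases after the annotated start, were available from RefSeq (GRCm38.p6) for 9 of the 10 genes, all except Prdx6. The last 100 bases before the start are shown for the enzymes of the peroxisome, the ER and the mitochondria, and 150 bases for Hspa5, the ER chaperone BiP, as a gene with a complete element. Capitals mark CCAAT and CCACG on either strand, so that ATTGG and CGTGG are the same letters read from the other strand.
Cat, chr2:103485154-103485253, minus strand: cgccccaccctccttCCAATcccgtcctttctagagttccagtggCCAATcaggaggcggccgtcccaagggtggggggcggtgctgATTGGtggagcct
Prdx4, chrX:155338461-155338560, minus strand: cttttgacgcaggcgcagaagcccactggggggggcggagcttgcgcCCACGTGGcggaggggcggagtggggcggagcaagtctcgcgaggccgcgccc
Prdx3, chr19:60874539-60874638, minus strand: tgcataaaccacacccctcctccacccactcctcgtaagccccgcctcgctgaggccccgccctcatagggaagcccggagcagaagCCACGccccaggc
Sod2, chr17:13007739-13007838, plus strand: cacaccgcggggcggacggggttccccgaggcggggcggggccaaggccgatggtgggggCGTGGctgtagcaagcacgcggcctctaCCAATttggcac
Hspa5, chr2:34771940-34772089, plus strand: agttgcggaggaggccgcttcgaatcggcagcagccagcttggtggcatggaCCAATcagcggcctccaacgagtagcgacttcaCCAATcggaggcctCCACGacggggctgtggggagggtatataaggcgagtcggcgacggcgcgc
In this stretch Cat has only CCAAT, Prdx3 and Prdx4 have only CCACG, and Sod2 has both, apart from each other and on opposite strands. In Prdx4 the 2 copies of CCACG overlap each other on the 2 strands. Hspa5 holds 1 complete ERSE.

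A complete ERSE, CCAAT and CCACG joined by 9 bases of any kind on either strand, was in none of the 9 member windows and in 0.119% of all 32851 windows of the table. The related ERSE-II, ATTGG and CCACG joined by 1 base of any kind, was in no member window and in 0.0365% of all windows, and the ATF6 site TGACGTG in no member window and 2.01% of all windows. CCACG alone, which is part of ERSE and ERSE-II, was in 6 of 9 member windows (Prdx2, Prdx3, Prdx4, Prdx5, Sod1 and Sod2), against 32.8% of all windows. CCAAT alone, a search added after the first results, was in 4 of 9 (Cat, Prdx4, Sod1 and Sod2), against 37.4% of all windows. The core of the antioxidant response element through which NRF2 acts, TGACNNNGC, was in Prdx1 and Sod1 and in 12.4% of all windows. These matches describe the letters of the windows and not bound sites.

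Array medians of the log2 signal were 5.58 to 5.64 and replicates correlated at 0.990 to 0.991 over 22206 clusters. Groups were compared with limma, and a gene was called to rise or fall at an adjusted p under 0.05. The Atf6b signal was 6.12 log2 units higher in ATF6β-cn than in control ventricles (adjusted p = 4.70e-05). The Atf6 signal did not show the ATF6α transgene: it was 12.70 and 13.07 on the arrays labelled ATF6α-cn, against 13.09 and 13.04 on the control arrays (difference -0.18, adjusted p = 0.850). The sources used here do not say where the Atf6 probes lie relative to the N-terminal cDNA, so this signal does not check the label. In ATF6β-cn ventricles Atf6 had 12.25 and 11.94, below both control arrays, without being called (difference -0.97, adjusted p = 0.110). Hspa5 rose in both lines, by 1.72 in ATF6α-cn (adjusted p = 0.0370) and by 1.38 in ATF6β-cn (adjusted p = 0.0260). All 10 cardiomyocyte markers were measured above background and none was called in any comparison. Several of them, such as Pln (19.76 to 19.81 over the 6 arrays), lay near the top of the signal range. In ATF6β-cn minus control, 6 of the 10 markers had a positive and 4 a negative difference. Their median was 0.009, with a lowest difference of -0.65 and a highest of 0.03. Mybpc3, a protein of the thick filament, had 16.40 and 16.18 in ATF6β-cn, against 16.98 and 16.90 in control ventricles (difference -0.65, adjusted p = 0.231), and Myl3, a myosin light chain, 17.82 and 17.70, against 18.23 and 18.13 (difference -0.42, adjusted p = 0.429), both without overlap.

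None of the 10 enzymes was called in ATF6α-cn or in ATF6β-cn ventricles. Catalase stood highest relative to control, about 1.5-fold above it in both lines, and most of the other enzymes stood below control. All 10 signals exceeded the background level of 5.02 on all 6 arrays, the background level being the 95th percentile of the signals of 1389 olfactory and vomeronasal receptor genes, genes not known for expression in the heart. Over all clusters 0.0946% were called in ATF6α-cn against control and 1.10% in ATF6β-cn against control. With 2 arrays against 2, an exact permutation test of a single gene cannot give a p below 0.333. The limma p-values and intervals use the spread of each gene between these arrays, drawn towards a prior from all clusters. That prior has 5.63 degrees of freedom, against 3 residual. Cat and Sod1 had pooled replicate SDs of 0.055 and 0.044. The SE of the ATF6α-cn difference was 0.21 for each, more than their own replicates give.

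**Figure D1:**
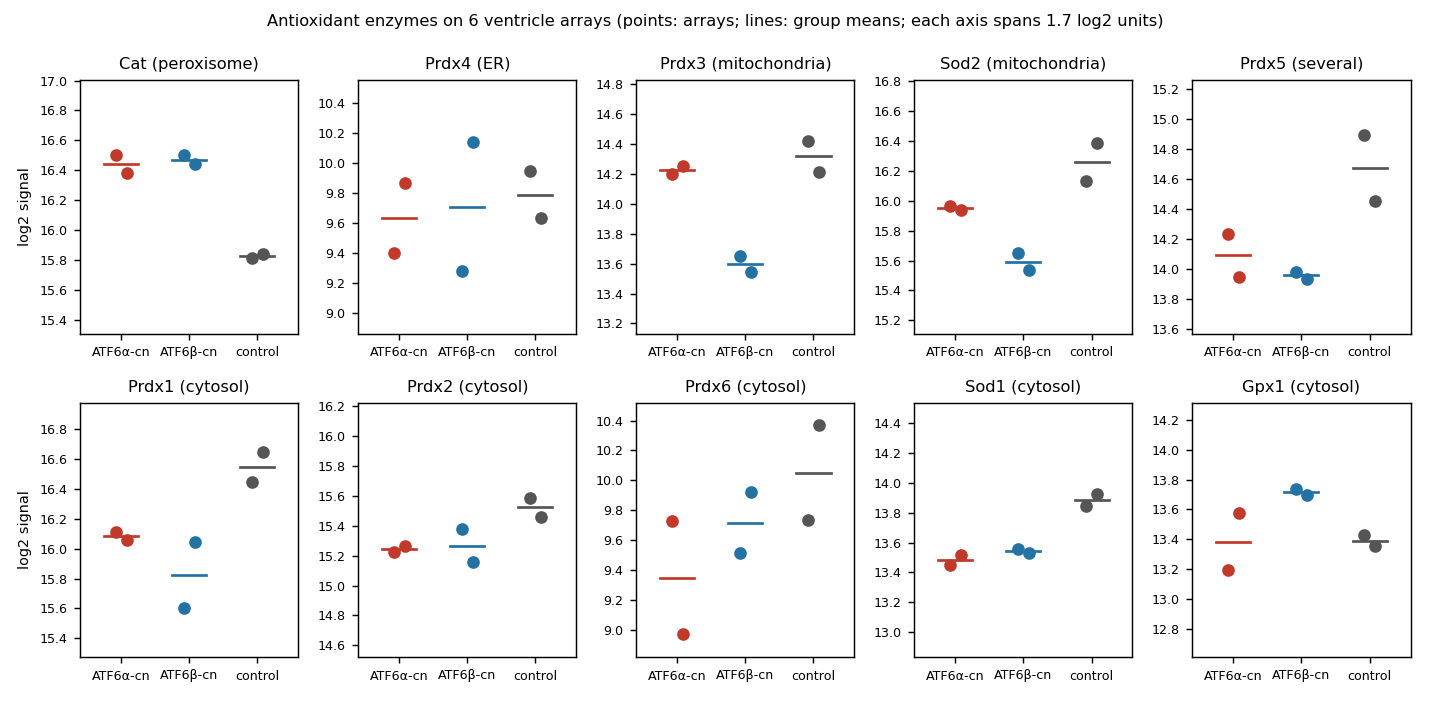
Log2 signal (vertical axis, each panel spanning 1.7 units) of the 10 enzymes on each array of ATF6α-cn, ATF6β-cn and control ventricles, with points for arrays and lines for means of 2 arrays. Cat lies at 16.38 to 16.50 on the 4 transgenic arrays and at 15.81 to 15.84 on the control arrays, Prdx3 and Sod2 are lowest in ATF6β-cn, and the Prdx4 points of all groups overlap.

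Catalase, the peroxisomal enzyme that splits hydrogen peroxide into water and oxygen, had log2 signals of 16.50 and 16.38 in ATF6α-cn ventricles, against 15.81 and 15.84 in control ventricles. In ATF6β-cn ventricles it had 16.50 and 16.44. All 4 transgenic arrays lay above both control arrays, and the replicates of each group differed by at most 0.12. The difference was 0.62 in ATF6α-cn (1.53-fold, 95% interval 0.15 to 1.09, adjusted p = 0.448) and 0.65 in ATF6β-cn (1.57-fold, 0.18 to 1.12, adjusted p = 0.212), both relative to the same control arrays. The lines themselves differed by 0.03, with an interval of -0.44 to 0.50. With both lines averaged against control, a contrast added after the data were seen, the difference was 0.63 (interval 0.23 to 1.04, adjusted p = 0.211), and in that contrast 0.374% of all clusters were called up and 0.0270% down, with no enzyme among them. Over all clusters, 9.34% had all 4 transgenic arrays above both control arrays, and 8.68% had a larger difference in either direction in ATF6α-cn than catalase, as had 11.5% in ATF6β-cn. The difference of Cat in ATF6β-cn passed when the variance was modelled with a trend over signal and a robust fit (adjusted p = 0.00975).

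Of 19 measured genes for peroxisome biogenesis and the peroxisomal membrane, none was called in either line, and most had a negative difference where that of catalase was positive. In ATF6α-cn ventricles 4 had a positive and 15 a negative difference, with a median of -0.26, against 53.3% negative and a median of -0.03 over all clusters. In ATF6β-cn ventricles 7 were positive and 12 negative, with a median of -0.13, against 51.9% negative and a median of -0.02 over all clusters. The largest differences of the list were those of Abcd2, a transporter of very long-chain fatty acids, at -0.64 in ATF6α-cn and -0.92 in ATF6β-cn (adjusted p = 0.513 and 0.144), and Pex11a, which acts in peroxisome division, at -0.76 and -0.57 in the same order (adjusted p = 0.550 and 0.497). Pex11a had 7.94 and 7.64 in ATF6α-cn, 8.31 and 7.64 in ATF6β-cn, and 8.93 and 8.18 in control ventricles, and ATF6β-cn overlapped control.

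The mitochondrial enzymes were lower in ATF6β-cn than in control ventricles without passing the test, and Prdx3 lay near control in ATF6α-cn ventricles. Prdx3, the main peroxide-reducing peroxiredoxin of the mitochondrial matrix, had log2 signals of 13.65 and 13.54 in ATF6β-cn ventricles, against 14.42 and 14.21 in control ventricles. In ATF6α-cn ventricles it had 14.20 and 14.25, and these values overlapped those of control. The ATF6β-cn arrays were the lowest of the 6, below every array of the other groups. The difference was -0.72 in ATF6β-cn (1.65-fold lower, interval -1.20 to -0.24, adjusted p = 0.173) and -0.09 in ATF6α-cn (interval -0.57 to 0.39, adjusted p = 0.927). Compared directly, ATF6β-cn lay 0.63 log2 units below ATF6α-cn (interval -1.11 to -0.15, adjusted p = 0.364), the only difference between the lines among the 10 enzymes whose unadjusted p was under 0.05, against 9.67% of all clusters (5.30% higher and 4.37% lower).

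Sod2, the manganese enzyme that removes superoxide in the same compartment, had 15.65 and 15.53 in ATF6β-cn ventricles, against 16.13 and 16.39 in control ventricles. In ATF6α-cn ventricles it had 15.97 and 15.94, between the other groups and overlapping neither. The difference was -0.67 in ATF6β-cn (interval -1.16 to -0.18, adjusted p = 0.216) and -0.31 in ATF6α-cn (interval -0.80 to 0.18, adjusted p = 0.703). ATF6β-cn lay 0.36 log2 units below ATF6α-cn, with an interval of -0.85 to 0.13 (adjusted p = 0.655). With the variance trend and robust fit, both mitochondrial enzymes passed as lower in ATF6β-cn than in control, Prdx3 at an adjusted p of 0.0207 and Sod2 at 0.0164.

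Among 11 measured regulators of mitochondrial and antioxidant genes none was called. In ATF6β-cn ventricles 4 differences were positive and 7 negative (median -0.19), and in ATF6α-cn ventricles 3 were positive and 8 negative (median -0.11). Over all clusters 51.9% and 53.3% were negative in the same order. Sirt3, the deacetylase of the mitochondrial matrix that acts on Sod2, had 9.22 and 9.28 in ATF6β-cn ventricles, against 10.33 and 10.14 in control ventricles (difference -0.99, adjusted p = 0.0721). Its groups did not overlap. Tfam, which maintains mitochondrial DNA, differed by -0.81 in the same comparison (adjusted p = 0.275). In ATF6α-cn ventricles the largest differences were 0.76 for Ppargc1a, the coactivator of mitochondrial biogenesis, and -0.68 for the uncoupling protein Ucp2 (adjusted p = 0.626 and 0.448). Ppargc1a had 14.78 and 16.21 in ATF6α-cn, against 14.68 and 14.79 in control ventricles, so that only ATF6α-cn replicate 2 stood above control.

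Prdx4, the peroxiredoxin of the ER lumen, showed no difference beyond its replicate spread in either line. Prdx4 uses peroxide to drive disulfide formation in secretory proteins, handing oxidising power to protein disulfide isomerases. Its log2 signals were 9.40 and 9.86 in ATF6α-cn, 9.28 and 10.14 in ATF6β-cn, and 9.95 and 9.63 in control ventricles. The ATF6β-cn replicates held both the lowest and the highest of the 6 values, 0.86 apart, and the groups overlapped in all comparisons. The difference was -0.16 in ATF6α-cn (interval -0.89 to 0.57, adjusted p = 0.914) and -0.08 in ATF6β-cn (interval -0.81 to 0.65, adjusted p = 0.947). Between ATF6β-cn and ATF6α-cn it was 0.08 (interval -0.65 to 0.81, adjusted p = 0.967). The intervals are wide beside the differences of the other enzymes, none of which was called either. The lack of a call for Prdx4 therefore does not show that it was unchanged.

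Among the other ER redox genes, those called to rise were disulfide isomerases. In ATF6β-cn ventricles 4 of 15 measured genes rose, against 0.793% of all clusters called up in that comparison, and all 4 belong to the protein disulfide isomerase family. Pdia6 had 13.82 and 13.65 in ATF6β-cn ventricles, against 11.86 and 11.62 in control ventricles (difference 1.99, adjusted p = 0.00632). P4hb rose by 1.49 (adjusted p = 0.0284), Txndc5 by 1.42 (adjusted p = 0.0230) and Pdia3 by 1.38 (adjusted p = 0.0338). Erp44 stood at 1.05 and Selk, now named Selenok, at 0.99 without being called (adjusted p = 0.130 and 0.0751). Neither overlapped control. Of the 15 differences 13 were positive and 2 negative, while 51.9% of all clusters were negative. In ATF6α-cn ventricles none of the 15 was called, with Pdia6 at 1.53 (adjusted p = 0.0799) and Pdia3 at 1.21 (adjusted p = 0.212).

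Of the enzymes that make or use peroxide in the ER none was called. Ero1l, the oxidase now named Ero1a, differed by 0.07 in ATF6β-cn and 0.04 in ATF6α-cn (adjusted p = 0.948 and 0.979), with overlapping groups. Its paralog Ero1lb, now Ero1b, differed by 0.45 and 0.04 in the same order (adjusted p = 0.590 and 0.978). Ero1lb had 6.24 and 7.12 in ATF6β-cn, against 6.07 and 6.40 in control ventricles, so that only ATF6β-cn replicate 2 stood above control. Gpx7 and Gpx8, the glutathione peroxidases of the ER, differed by 0.08 and -0.12 in ATF6β-cn and by -0.22 and -0.11 in ATF6α-cn, none of them called. Over the 15 genes the median difference was 0.45 in ATF6β-cn and 0.04 in ATF6α-cn, against -0.02 and -0.03 over all clusters. Txndc5 had 10.90 and 10.69 in ATF6β-cn, 9.47 and 9.26 in ATF6α-cn, and 9.35 and 9.40 in control ventricles. It was the single gene of the redox lists called between the lines (difference 1.43, adjusted p = 0.0469), where 0.270% of all clusters were called, 0.221% up and 0.0495% down.

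The cytosolic peroxiredoxins and Sod1 were below control in both lines without passing the test. Prdx1, a thioredoxin-dependent peroxidase that NRF2 activates, had 15.60 and 16.04 in ATF6β-cn, 16.11 and 16.06 in ATF6α-cn, and 16.45 and 16.65 in control ventricles. All 4 transgenic arrays lay below both control arrays. The difference was -0.72 in ATF6β-cn (interval -1.26 to -0.19, adjusted p = 0.219) and -0.46 in ATF6α-cn (interval -0.996 to 0.07, adjusted p = 0.609). The ATF6β-cn value rests more on replicate 1, since without it the difference was -0.50 and without replicate 2 it was -0.94.

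Prdx2, its close relative, had 15.22 and 15.26 in ATF6α-cn, 15.38 and 15.16 in ATF6β-cn, and 15.59 and 15.46 in control ventricles (differences -0.28 and -0.26, adjusted p = 0.722 and 0.672). Sod1, the copper-zinc dismutase, had 13.45 and 13.52 in ATF6α-cn, 13.56 and 13.53 in ATF6β-cn, and 13.85 and 13.92 in control ventricles. Its replicates lay within 0.08 of each other, the closest of the 10 enzymes, and neither line overlapped control. The differences were -0.40 in ATF6α-cn (interval -0.87 to 0.06, adjusted p = 0.608) and -0.34 in ATF6β-cn (interval -0.81 to 0.13, adjusted p = 0.530).

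Prdx6, which has a single active cysteine and also acts on phospholipids, had the widest range over the 6 arrays. It had 9.73 and 8.97 in ATF6α-cn, 9.51 and 9.92 in ATF6β-cn, and 9.74 and 10.37 in control ventricles. The second ATF6α-cn array was 0.76 log2 units below the first, and the ATF6α-cn difference of -0.70 (interval -1.45 to 0.04, adjusted p = 0.583) was -0.33 without it. ATF6β-cn overlapped control, with a difference of -0.34 (adjusted p = 0.726). Between ATF6β-cn and ATF6α-cn it was 0.37 (interval -0.38 to 1.11, adjusted p = 0.797), and -0.010 without ATF6α-cn replicate 2. Prdx6b, a near-identical copy of the gene, had signals of 4.52 to 5.26, around the background level.

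Prdx5, an atypical peroxiredoxin found in mitochondria, peroxisomes and cytosol, had 14.23 and 13.95 in ATF6α-cn, 13.98 and 13.93 in ATF6β-cn, and 14.90 and 14.45 in control ventricles. All transgenic arrays lay below both control arrays. The difference was -0.59 in ATF6α-cn (interval -1.13 to -0.04, adjusted p = 0.543) and -0.72 in ATF6β-cn (interval -1.27 to -0.17, adjusted p = 0.230). Without control replicate 1, the higher control array, these became -0.36 and -0.50.

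Gpx1, the selenium-dependent peroxidase of cytosol and mitochondria, lay above control on both ATF6β-cn arrays, without passing the test. It had 13.74 and 13.70 in ATF6β-cn, 13.19 and 13.58 in ATF6α-cn, and 13.43 and 13.35 in control ventricles. The ATF6α-cn arrays lay on either side of the control arrays. The difference was 0.32 in ATF6β-cn (interval -0.19 to 0.84, adjusted p = 0.591) and -0.01 in ATF6α-cn (interval -0.52 to 0.50, adjusted p = 0.996). Gpx1 needs selenium, and of 9 genes for selenoprotein synthesis none was called in either line. Their median difference was 0.01 in ATF6β-cn and -0.18 in ATF6α-cn.

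**Figure D2:**
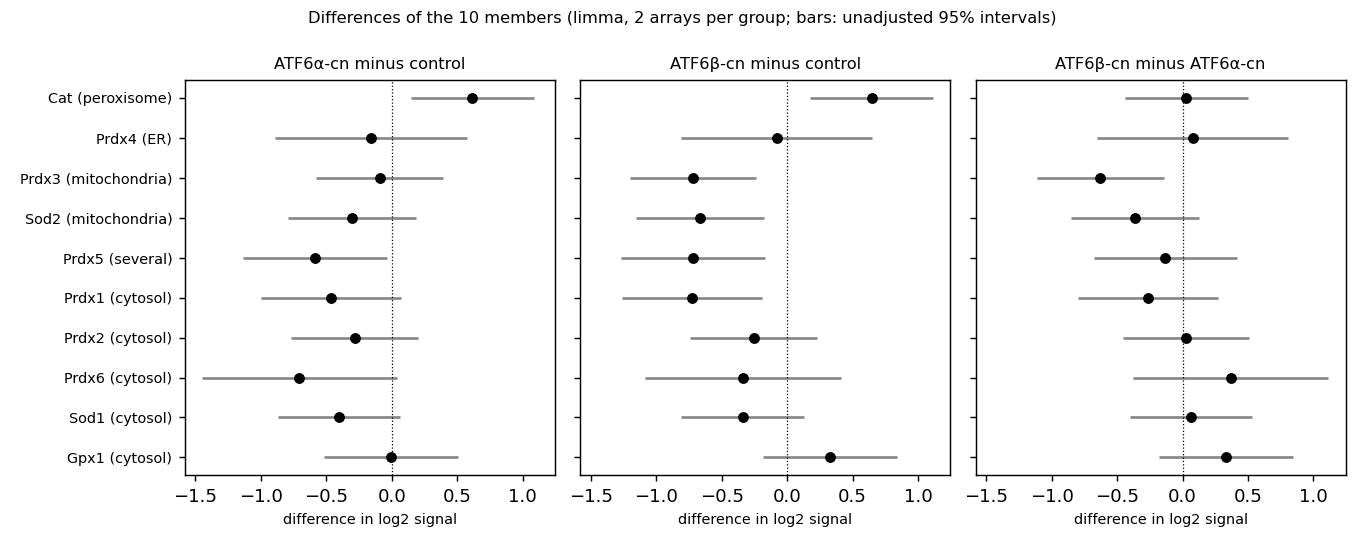
Differences in log2 signal (horizontal axis) of the 10 enzymes in ATF6α-cn minus control, ATF6β-cn minus control and ATF6β-cn minus ATF6α-cn, with points for the limma estimate from 2 arrays per group and bars for its unadjusted 95% interval. The interval of Cat lies above 0 in both lines (0.15 to 1.09 and 0.18 to 1.12), those of Prdx1, Prdx3, Prdx5 and Sod2 lie below 0 in ATF6β-cn, and no enzyme passed after adjustment.

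Counted over the 10 enzymes, ATF6α-cn minus control was positive for 1 and negative for 9, while 53.3% of all clusters were negative. The groups did not overlap for 7 enzymes, 1 higher (Cat) and 6 lower, against 17.9% of all clusters higher and 21.6% lower (39.5% in all). The median over the enzymes was -0.29, against -0.03 over all clusters. At an unadjusted p under 0.05 stood 2 of 10, Cat higher and Prdx5 lower, against 4.44% of all clusters higher and 4.48% lower (8.92% in all). In ATF6β-cn minus control 2 were positive and 8 negative, while 51.9% of all clusters were negative. The groups did not overlap for 8 enzymes, 2 higher (Cat and Gpx1) and 6 lower, against 21.1% of all clusters higher and 23.3% lower (44.4% in all). The median was -0.34, against -0.02 over all clusters. Here 5 of 10 stood at an unadjusted p under 0.05, Cat higher and Prdx1, Prdx3, Prdx5 and Sod2 lower, against 6.72% of all clusters higher and 7.14% lower (13.9% in all). The same 5 passed after adjustment with the variance trend and robust fit, under which 1.70% of all clusters were called up and 1.39% down. That fit called no enzyme in ATF6α-cn against control (0.266% of all clusters up, 0.00901% down) or in ATF6β-cn against ATF6α-cn (0.815% up, 0.342% down). Without ATF6β-cn replicate 2 the median of the 10 differences was -0.53.

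The study names Transcriptome Analysis Console for its arrays, and Student's t-test in the caption on their gene categories. That t-test, taken without adjustment at 0.05 on the same values, placed 4 enzymes past the threshold in ATF6α-cn, Cat higher and Prdx1, Prdx2 and Sod1 lower, where it placed 6.85% of all clusters past it. In ATF6β-cn it placed 5, Cat and Gpx1 higher and Prdx3, Sod1 and Sod2 lower, against 10.2% of all clusters. Between ATF6β-cn and ATF6α-cn it placed 2, Prdx3 and Sod2 lower in ATF6β-cn, against 7.35% of all clusters. After Benjamini-Hochberg adjustment it called none of the 22206 clusters in any comparison.

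Since both lines were set against the same 2 control arrays, a deviation of these arrays enters both comparisons. Of the 10 enzymes 7 had their highest signal on a control array, 3 on replicate 1 and 4 on replicate 2, and 3 on an ATF6β-cn array. Prdx1, Prdx2, Prdx5, Sod1 and Sod2 were below both control arrays on all 4 transgenic arrays, as were 11.4% of all clusters. Between ATF6β-cn and ATF6α-cn 6 differences were positive and 4 negative, with a median of 0.03, against 0.00 over all clusters, of which 49.6% were negative. The groups did not overlap for 5 enzymes (Gpx1 and Sod1 higher, Prdx1, Prdx3 and Sod2 lower in ATF6β-cn), against 20.3% of all clusters higher and 19.4% lower (39.7% in all).

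Around the enzymes, 119 further redox genes were measured in 9 lists. In ATF6α-cn ventricles none of them was called (median difference -0.11). In ATF6β-cn ventricles 7 were called, 5 up and 2 down, or 5.88%, against 1.10% of all clusters. Beside the 4 disulfide isomerases these were Blvrb, Glrx and Mgst1. Without ATF6β-cn replicate 1, ATF6β-cn replicate 2 or control replicate 2 in turn none of the 119 was called, and without control replicate 1 only 1 was.

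Blvrb, a biliverdin reductase of haem breakdown in the NRF2 list, had 10.12 and 9.74 in ATF6β-cn ventricles, against 7.31 and 7.47 in control ventricles (difference 2.54, 5.82-fold, SE 0.33, adjusted p = 0.0116). In ATF6α-cn it had 8.55 and 7.56 (difference 0.67, adjusted p = 0.598). Blvrb is also abundant in red cells, and the summed level of 6 erythroid markers, as log2, was 10.21 to 10.75 in ATF6β-cn, 9.47 to 9.85 in ATF6α-cn and 9.67 to 9.91 in control ventricles. Only 3 of those 6 exceeded background on all arrays and none was called. The 4 haemoglobin clusters, each matching several genes, were highest on ATF6β-cn replicate 1 and lowest on ATF6β-cn replicate 2, with none called. The part of red cells in the Blvrb signal was not tested. Of 17 measured NRF2 pathway genes Blvrb was the only one called in ATF6β-cn. Another 14 had a positive difference, among them G6pdx, which supplies NADPH, at 0.68 and the haem oxygenase Hmox1 at 0.54 (adjusted p = 0.357 and 0.363), and also Keap1, the repressor of NRF2, at 0.46 (adjusted p = 0.446, named after its values were seen). Over all clusters 51.9% had a negative difference in this comparison. G6pdx had 8.71 and 8.84 in ATF6β-cn, against 8.50 and 7.70 in control ventricles, with control replicate 2 the lowest of the 6 arrays.

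In the glutathione list 2 of 17 measured genes fell in ATF6β-cn ventricles, where 0.306% of all clusters were called down. Glrx, the glutaredoxin that removes glutathione from proteins, had 10.52 and 10.38 in ATF6β-cn ventricles, against 11.93 and 12.04 in control ventricles (difference -1.54, SE 0.21, adjusted p = 0.0147). Mgst1, a membrane-bound glutathione transferase with peroxidase activity, had 12.05 and 12.15, against 13.65 and 13.71 in control ventricles (difference -1.58, SE 0.24, adjusted p = 0.0229). In ATF6α-cn ventricles Glrx had 11.74 and 11.83 (difference -0.20, adjusted p = 0.806) and Mgst1 13.04 and 12.54 (difference -0.89, adjusted p = 0.363). The direct difference of Glrx between the lines was -1.34 (adjusted p = 0.0527). Gstk1, a transferase of mitochondria and peroxisomes, and Glrx5, the mitochondrial glutaredoxin, had -1.23 and -0.94 in ATF6β-cn without passing (adjusted p = 0.133 and 0.131). Over the list 11 of 17 differences were negative in ATF6β-cn (median -0.49) and 10 of 17 in ATF6α-cn (median -0.17), against 51.9% and 53.3% of all clusters.

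No gene was called in the 3 remaining redox lists, which hold the other glutathione peroxidases with Sod3, the thioredoxin system and the sources of oxidants. The secreted peroxidase Gpx3 had 15.02 and 14.83 in ATF6β-cn ventricles, against 13.99 and 13.66 in control ventricles (difference 1.10, adjusted p = 0.0671). Maob, a monoamine oxidase of the outer mitochondrial membrane that makes hydrogen peroxide, had 7.96 and 8.47 in ATF6β-cn, against 10.06 and 9.70 in control ventricles (difference -1.66, adjusted p = 0.0974). In the thioredoxin list the sestrin Sesn3 stood at 0.72 in ATF6β-cn and 0.66 in ATF6α-cn (adjusted p = 0.180 and 0.440). Txnip, the inhibitor of thioredoxin, stood at -0.72 and -0.45 in the same order (adjusted p = 0.538 and 0.794). It had 15.90 and 16.09 in ATF6β-cn, 16.61 and 15.92 in ATF6α-cn, and 15.99 and 17.44 in control ventricles. Both lines overlapped control, of which only replicate 2 stood above all other arrays.

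**Figure D3:**
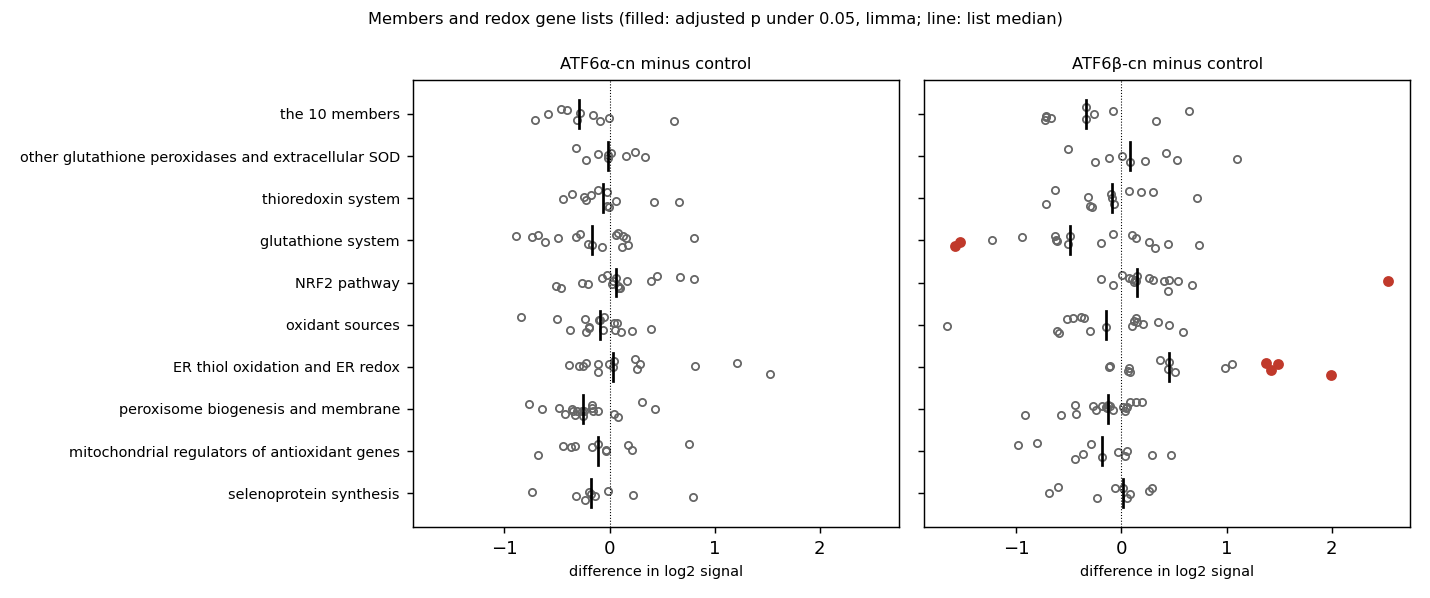
Differences in log2 signal (horizontal axis) of each gene of the 10 enzymes and of 9 redox lists in ATF6α-cn minus control and ATF6β-cn minus control, with filled points for genes called by limma at an adjusted p under 0.05, open points for the others and black lines for list medians. No point is filled in ATF6α-cn, and 7 are filled in ATF6β-cn, 4 of them in the ER list, Blvrb in the NRF2 list, and Glrx and Mgst1 in the glutathione list.

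In whole ventricle a lower share of a cell type and less RNA per cell cannot be told apart, and markers of other cells were therefore read beside these values. The summed level of 8 fibroblast markers, as log2, was 18.34 to 18.66 in ATF6β-cn, 17.77 to 17.91 in ATF6α-cn and 17.82 on both control arrays. Dcn, the brightest of the 8, makes up most of this sum (18.26 and 18.54 in ATF6β-cn, 17.73 on both control arrays). In ATF6β-cn minus control 7 of the 8 differences were positive and 1, that of Postn, negative (median 0.63). Of these 8, Fbln1 was called, higher in ATF6β-cn by 1.75 than in control (adjusted p = 0.0393) and by 2.02 than in ATF6α-cn (adjusted p = 0.0472). The summed level of the endothelial markers was 17.29 to 17.40 in ATF6β-cn, 17.35 to 18.03 in ATF6α-cn and 17.49 to 17.58 in control ventricles, lower in ATF6β-cn than in control without overlap. That sum rests mainly on its brightest gene, Fabp4 (17.01 and 16.87 in ATF6β-cn, 17.09 and 17.19 in control ventricles). Over the 7 markers 3 differences were positive and 4 negative in ATF6β-cn (median -0.02). Emcn and Tek were higher than control without overlap, and Fabp4, Cdh5 and Pecam1 lower. None of the endothelial, macrophage, smooth muscle, adipocyte or leukocyte markers was called. The summed level of 8 macrophage markers was 13.59 to 14.39 in ATF6β-cn, 13.72 to 13.75 in ATF6α-cn and 13.34 to 13.52 in control ventricles. The part of these cells in the member values was not tested.

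The genes whose mean-centred signals lay closest to those of the enzymes over the 6 arrays were found by the root mean square difference among 21153 other genes. For Cat they were Nup188 (0.050), Kidins220 (0.064) and Ddx60 (0.065), and for Prdx4 Tinag (0.025), Ankib1 (0.066) and Traf5 (0.077). For Prdx3 they were Afap1l1 (0.043), Alpk3 (0.057) and Foxn3 (0.064), and for Sod2 Lxn (0.046), Kpna3 (0.051) and Nlrp10 (0.052). None of these is another of the 10 enzymes, and Tinag averaged 4.41 to 4.59 in the 3 groups, under the background level.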

How the data were processed

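Log2 signals of 6 Clariom S arrays, deposited as 1 table by the authors, were used as given. The authors had normalized them between arrays, using Affymetrix Expression Console according to the processing notes of the submitters (how it corrected background and summarised probes: not given in the sources used here). A second deposited table holds fold changes and p-values of the authors for each line against control, and only its gene symbols were used. Of 28846 probe sets, 6640 controls were left out and 22206 clusters were tested with no filter on signal, 836 of them matching several genes. A gene with several clusters was represented by that with the highest mean. Synonyms and promoter windows came from RefSeq tables (GRCm38.p6), and 177 of 185 list genes were measured, 7 of them through a synonym.

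A linear model with a mean for each group was fitted to all 6 arrays by limma 3.58.1 in R 4.3.3, with 3 residual degrees of freedom and 5.63 from the prior. The Benjamini-Hochberg adjustment of p-values covered all clusters of a comparison. The precision is limited by the number of arrays. The calculation was tested on simulated data. The members and gene lists were chosen with earlier results of these data known. The genes named are the 10 enzymes, up to 4 genes of each list that passed and up to 2 that did not by size of difference, the 3 genes most like Cat, Prdx3, Prdx4 and Sod2, and Atf6, Atf6b and Hspa5 as checks. Ero1l, Ero1lb, Gpx7, Gpx8, Prdx6b, Keap1, Mybpc3, Myl3 and Pln were named after their values were seen. Alternatives were quantile normalization, arrays centred on the same median, array weights, the widest-range cluster of a gene in place of the brightest, leaving out dim clusters, a variance trend with a robust fit, the replicate number as a block, the 4 arrays of a comparison alone, Student's t-test, and leaving out each array.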

Additional observations from a re-analysis of the deposited data

Results flagged for a closer look

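Among the genes named, 3 differed between the lines by the direct limma test of ATF6β-cn against ATF6α-cn. Txndc5, the disulfide isomerase of the ER, was 1.43 log2 units higher in ATF6β-cn (adjusted p = 0.0469), with no overlap of the 2 arrays of each line. The fibroblast marker Fbln1 was 2.02 higher in ATF6β-cn (adjusted p = 0.0472). Atf6b itself was 5.89 higher in ATF6β-cn (adjusted p = 4.13e-05), as the transgene of that line. None of the 10 antioxidant enzymes passed this test.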

How the results depend on the processing

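No enzyme was called in any comparison under quantile normalization, with arrays centred on the same median, with array weights, with the widest-range cluster per gene, without dim clusters, with the replicate block, with the 4 arrays of a comparison alone, with Student's t-test after Benjamini-Hochberg, or without any array (0 to 0 in each comparison). With the variance trend and robust fit, 5 enzymes were called in ATF6β-cn against control and none in the other comparisons. Of the 119 further redox genes, that fit called 2 in ATF6α-cn, 14 in ATF6β-cn and 6 between the lines. Over all clusters it called 0.266% up and 0.00901% down in ATF6α-cn, 1.70% and 1.39% in ATF6β-cn, and 0.815% and 0.342% between the lines. Student's t-test at unadjusted p called 4 enzymes (1 up, 3 down) in ATF6α-cn, 5 (2 up, 3 down) in ATF6β-cn and 2 between the lines. It called 11, 20 and 13 of the 119 further redox genes in the same order, against 6.85%, 10.2% and 7.35% of all clusters. After Benjamini-Hochberg it called no redox gene and none of the 22206 clusters. Between the lines, where 1 further redox gene was called, 0 were with quantile normalization, the replicate block or 4 arrays, and 2 without dim clusters. Leaving out each array gave 0 to 7 further redox genes in ATF6β-cn, 0 to 1 between the lines and 0 to 0 in ATF6α-cn. The median of the enzymes was -0.27 in ATF6α-cn and 0.071 between the lines with quantile normalization. Leaving out each array, it ranged over -0.53 to -0.31 in ATF6β-cn, -0.33 to -0.29 in ATF6α-cn and -0.025 to 0.027 between the lines, and the cause of these shifts was not tested.

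Gpx1 in ATF6α-cn was 0.02 with quantile normalization. Leaving out each array, the difference ranged from -0.20 to 0.18 for Gpx1, from -0.19 to 0.010 for Prdx3 and from -0.39 to 0.076 for Prdx4 in ATF6α-cn, and from -0.51 to 0.35 for Prdx4 in ATF6β-cn. Between the lines it ranged from -0.029 to 0.088 for Cat, -0.083 to 0.13 for Prdx2, -0.35 to 0.51 for Prdx4, -0.28 to 0.011 for Prdx5 and -0.010 to 0.75 for Prdx6. Cat ranged from 0.56 to 0.68 in ATF6α-cn and from 0.62 to 0.68 in ATF6β-cn.

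Over all clusters, 21 were called in ATF6α-cn, 244 in ATF6β-cn and 60 between the lines, against 61, 686 and 257 with the variance trend and robust fit, and 1522, 2266 and 1633 by Student's t-test at unadjusted p. ATF6β-cn gave 390 without dim clusters, and the lines differed in 38 with quantile normalization and 36 with 4 arrays, where ATF6α-cn gave 13. Leaving out each array gave 9 to 13, 41 to 190 and 9 to 36. The same replicate number did not mark deviations that moved together (correlations of -0.024 to 0.019 between groups), and a replicate block left 0 enzymes called and 27 clusters between the lines.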
